A study of Mus musculus with 12 samples.

Results

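Transcript levels of 40 genes of the integrated stress response and of amino acid supply were followed in fibroblast-like synoviocytes, connective tissue cells that line the joint, grown in culture from mice of a TNF-driven arthritis model (TNF, tumour necrosis factor). The genes were chosen by name as known parts or targets of this response, with earlier results of these data known. All 40 were found among the 36875 gene symbols of the count table and among the 15049 genes that passed the expression filter. The resolution group held 4 libraries from animals whose doxycycline, given at 1 mg/ml in 5% sucrose water for 3 weeks, had then been stopped (described as DOX OFF). The inflammation group held 4 libraries from animals still on that doxycycline water after 3 weeks (DOX ON). The homeostasis group held 4 libraries from animals on 5% sucrose water alone for 3 weeks, and its descriptions call it WT. Whether the 3 groups shared a genotype, which TNF construct doxycycline acted on and what drives it, and how long after withdrawal the cells were taken are details that the sources used here do not give.

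In the integrated stress response, kinases that sense amino acid shortage, misfolded protein in the endoplasmic reticulum, viral RNA or haem deficiency phosphorylate the initiation factor eIF2, which slows general translation while that of the transcription factor ATF4 increases. ATF4, with partners of the C/EBP family, switches on genes for serine, asparagine and proline synthesis, amino acid uptake and the charging of transfer RNAs, and also genes that feed back on the response. Since ATF4 is controlled largely at translation, its RNA level is not a measure of its protein.

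Levels are given in normalized CPM, read counts relative to the TMM-scaled library total, as mean ± SD with n = 4 libraries per group. Where single libraries are given, they stand in the order of replicates 1 to 4. A change is given as the log2 fold change ± SE, against homeostasis unless another group is named. The quasi-likelihood F test of edgeR gave the p-values, which were adjusted by Benjamini-Hochberg over all 15049 genes, and a gene passed when the adjusted p was under 0.05. Total counts ran from 18120745 to 34971537 per library. Summed fibroblast markers (11 genes) stood at 11124.9 to 16761.6 CPM in resolution, 21940.9 to 25366.6 CPM in inflammation and 29636.7 to 31951 CPM in homeostasis, and none of them was at 0 in every library of a group. Single markers differed: 8 fell in resolution and 5 in inflammation, while Dcn rose in both (2.48 and 2.60 on the log2 scale). Pdpn passed in neither, Pdgfra did not pass in resolution, and Col1a1, Col1a2 and Col3a1 did not pass in inflammation. Tnf itself was lower in both doxycycline groups, at 0.136 to 0.467 CPM in resolution, 0.573 to 1.76 CPM in inflammation and 1.78 to 6.39 CPM in homeostasis (-3.66 ± 0.48 SE, adjusted p = 3.65e-06, in resolution and -1.96 ± 0.41 SE, adjusted p = 0.000986, in inflammation). Y-linked genes set the groups apart, since Eif2s3y, Kdm5d and Uty were at 0 in all resolution and inflammation libraries and were detected in homeostasis. The X-linked gene Xist was higher in both doxycycline groups (4.01 in resolution and 3.36 in inflammation on the log2 scale). In every comparison against homeostasis, a difference in sex therefore cannot be told apart from that of the groups. The same holds for a difference in genotype, since homeostasis alone is described as WT. Homeostasis 1 and 2 stood apart from homeostasis 3 and 4 in several members, and resolution 2 from the other resolution libraries in Eprs and Lars, as given beside those genes. Both comparisons against homeostasis use the same 4 control libraries and are therefore not independent of each other.

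Most of the 40 genes had less RNA in each of the 2 doxycycline groups than in homeostasis. In resolution against homeostasis 29 members fell, 1 rose and 10 did not pass, where 25.8% of all genes tested fell and 27.5% rose. In inflammation against homeostasis 31 fell, 1 rose and 8 did not pass, where 18.3% of all genes fell and 19% rose. The median log2 fold change of the members was -0.68 in resolution and -0.62 in inflammation, beside -0.01 over all genes in each comparison. In resolution against inflammation 8 members fell, 2 rose and 30 did not pass, beside 7.64% of all genes lower and 8.52% higher. Here the members' median was -0.07, beside 0.02 over all genes. The replicate number was also used as a block in a fit of these 2 groups alone. There 11 members passed as lower and 5 as higher, beside 2223 and 2585 of all genes. That fit was added after seeing the data. With the block over all 12 libraries, fewer passed than without a block: 7 as lower and 2 as higher, beside 950 and 948 of all genes. With offsets for GC content and length 6 passed as lower and 7 as higher, beside 1165 and 1225 of all genes.

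The patterns over the 3 groups divided the members. Phgdh, Psat1, Shmt2, Mthfd2, Aldh18a1, Pycr1 and Slc7a5 fell in both comparisons against homeostasis and were lower in resolution than in inflammation. Atf4, Trib3, Atf3, Atf5, Nupr1, Eif4ebp1, Psph, Asns, Slc7a1, Chac1 and 10 of the 12 tRNA synthetases (all but Lars and Eprs) were lower in both and did not pass between resolution and inflammation. Slc7a11 was the 1 member higher in both. Ddit3, Ppp1r15a, Sesn2, Slc3a2, Gdf15 and Eprs passed in no comparison, and calls they gained under other settings stand beside each gene or in the closing section.

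**Figure D1:**
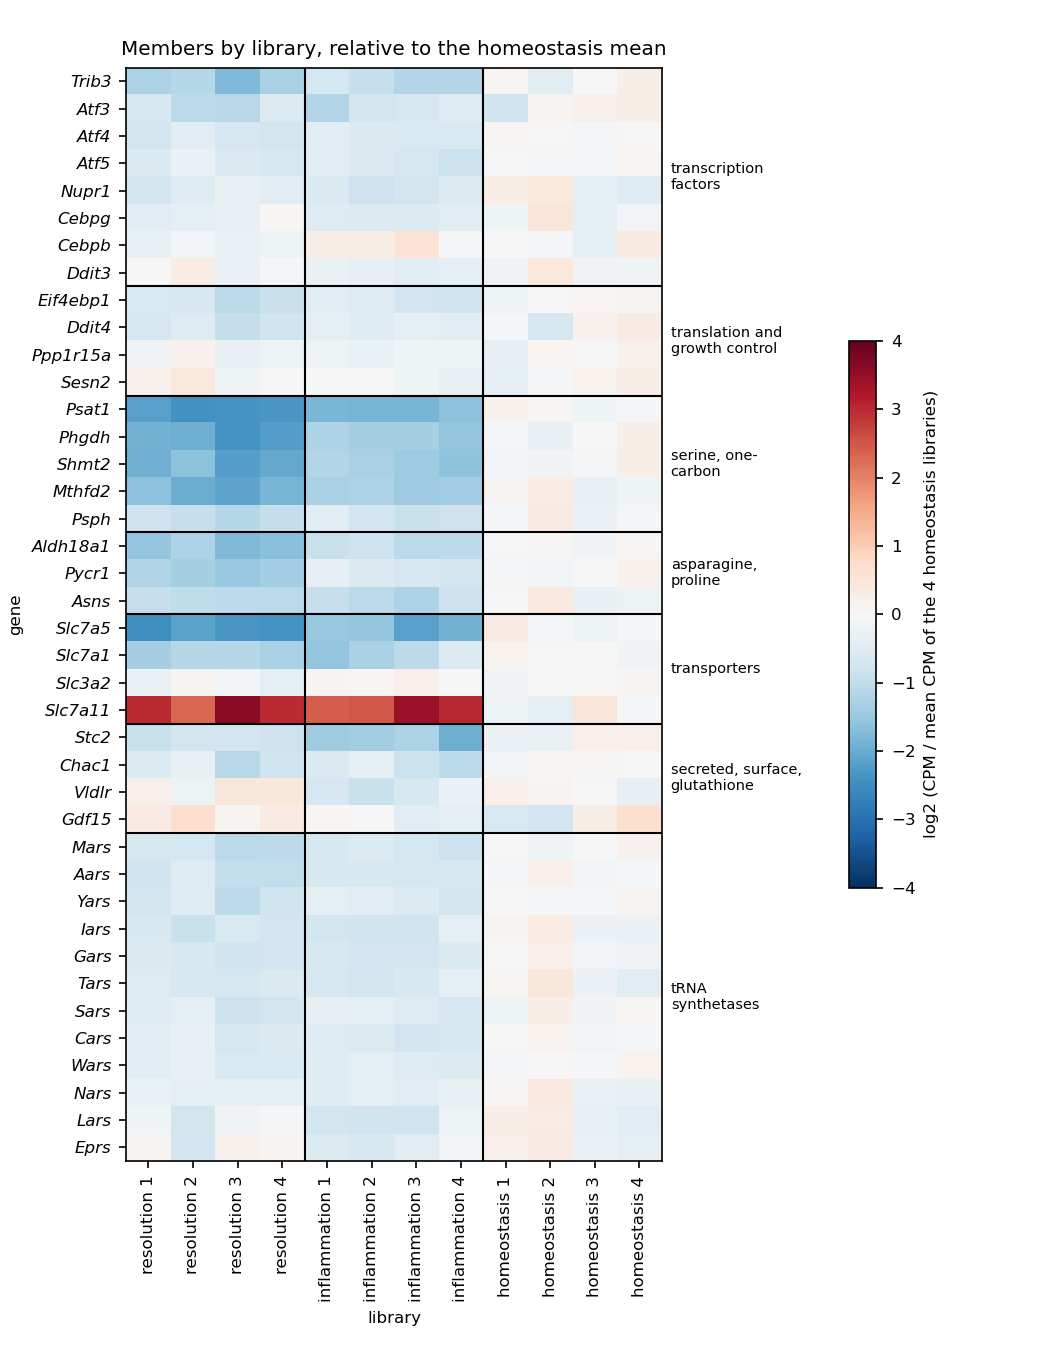
Each row is 1 member, grouped by role, and each column is 1 library, with resolution left, inflammation in the middle and homeostasis right. Colour gives log2 of the level in CPM against the mean of the 4 homeostasis libraries. Psat1, Slc7a5, Phgdh, Shmt2 and Mthfd2 are among the darkest rows on the lower side in both doxycycline groups, and Slc7a11 is the 1 row far on the higher side in all 8 doxycycline libraries.

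At least a 2-fold fall was seen for 10 members in resolution and 8 in inflammation, where 8.25% and 4.98% of all genes fell this far. Every resolution library lay below every homeostasis library for 25 members, a separation that 21.6% of all genes showed, and above it for Slc7a11, beside 21.9%. Every inflammation library lay below every homeostasis library for 28 members, beside 17.3% of all genes, and above it for Slc7a11, beside 18.1%. Between resolution and inflammation 8 members were separate and lower in resolution and 5 separate and higher, beside 9.91% and 8.94% of all genes, and no member fell by 2-fold or more, which 3.24% of all genes did. In bulk samples such as these, fewer cells of a type and less RNA per cell cannot be told apart. Against homeostasis, proliferation markers moved in the direction of most members: all 14 were lower in both doxycycline groups. They summed to 341 to 388 CPM in resolution, 620 to 696 CPM in inflammation and 1768 to 1898 CPM in homeostasis. Between resolution and inflammation the 2 sets differed. There 12 of the 14 markers were lower in resolution, with a median log2 fold change of -1.36, beside -0.07 for the members. The 8 chondrocyte markers summed to 9.17 to 14.99 CPM in resolution, 9.00 to 12.3 CPM in inflammation and 771 to 987 CPM in homeostasis, and Matn1 was at 0 in every resolution library. Col2a1 made up nearly all of the homeostasis sum, at 2.27 to 3.92 CPM in resolution, 2.01 to 3.20 CPM in inflammation and 756 to 964 CPM in homeostasis. Of the other 7, Acan and Sox9 also fell in both groups, Col11a2 rose in resolution (0.82 ± 0.30 SE, adjusted p = 0.0261), Matn3 did not pass, and Col9a1, Matn1 and Cnmd were too low to be tested. The 5 Schwann cell markers summed to 14.1 to 15.5 CPM in resolution, 7.79 to 9.25 CPM in inflammation and 25.4 to 29.5 CPM in homeostasis. Macrophage markers (14 genes) did not follow the members and summed to 63.4 to 71.8 CPM in resolution, 650.2 to 717 CPM in inflammation and 116 to 155 CPM in homeostasis. The part of cell division and of other cells in the members' differences was not tested.

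**Figure D2:**
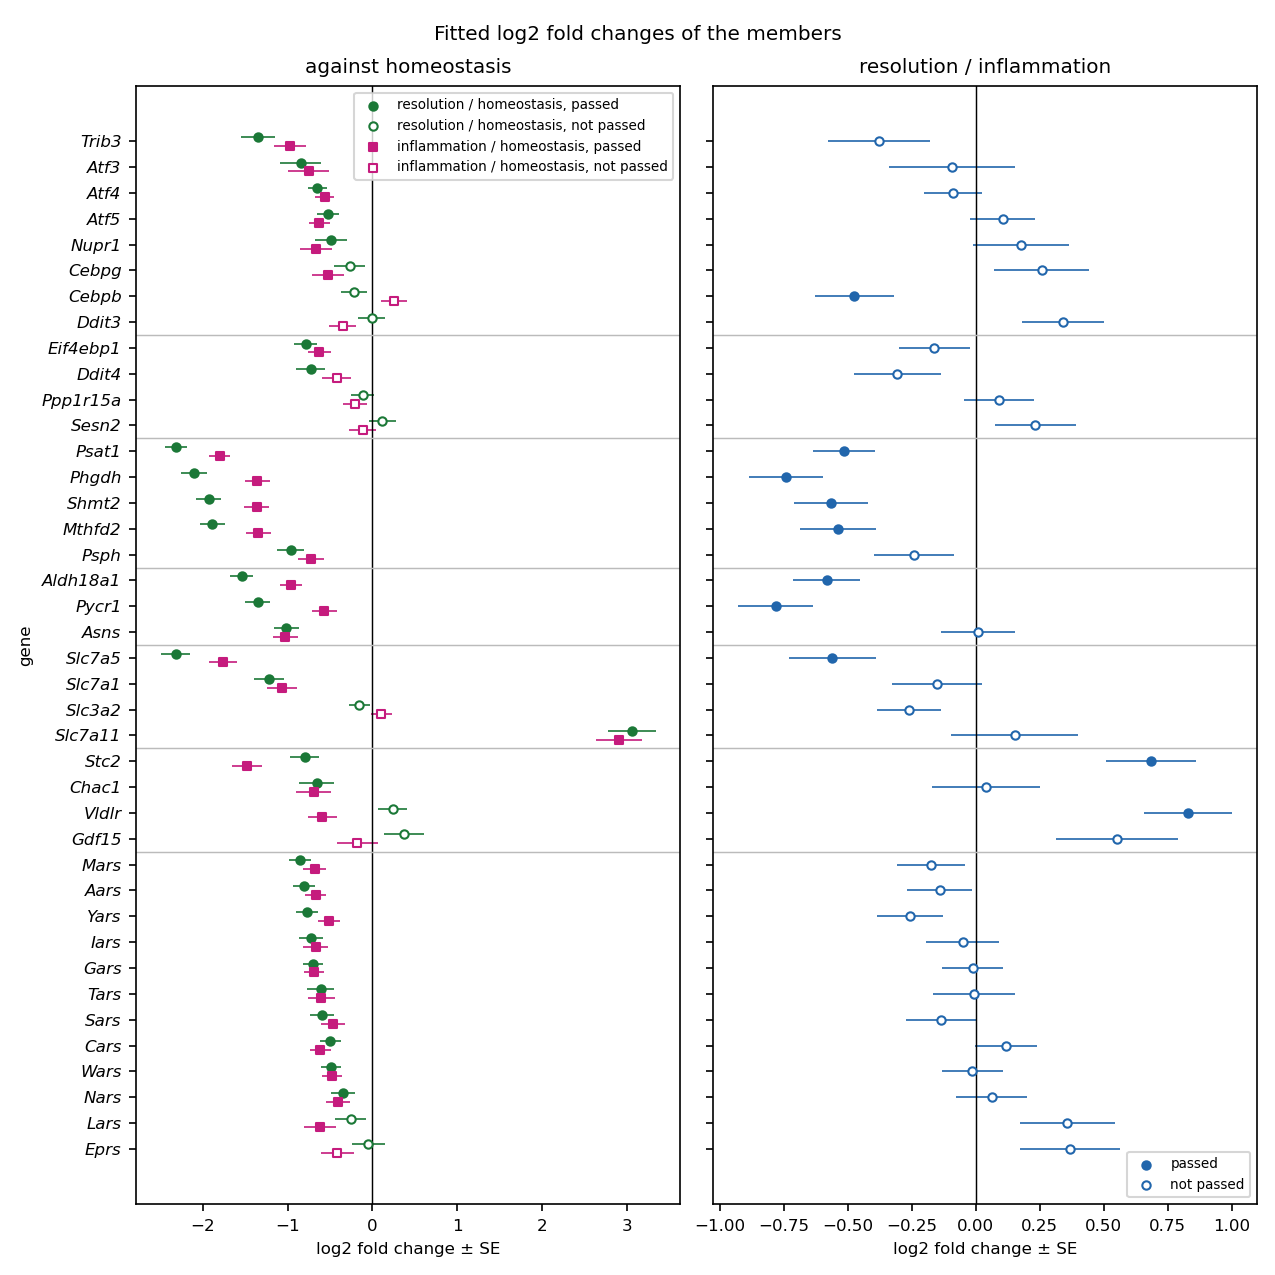
Points give the fitted log2 fold change of each member and bars its standard error, with filled symbols for those that passed (adjusted p under 0.05) and open symbols for the others. The left panel holds both comparisons against homeostasis, and the right panel resolution against inflammation on a narrower axis. Slc7a11 lies at 3.06 and 2.91 on the left. Slc7a5, Psat1 and Phgdh lie lowest for resolution, and Psat1, Slc7a5 and Stc2 for inflammation.

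Part of the members carry the C/EBP-ATF response element in their promoter, the site at which ATF4 and C/EBP proteins are known to bind together. It was searched as TGATGNAA on both strands, which reads TTNCATCA on the other strand, in RefSeq promoters of 300 bases (250 before to 50 after the start, build GRCm38.p6). Of 39 promoters of the 34 members with an entry, 13 held it (33.3%), in 13 genes, beside 3.97% of all 32851 promoters and 2.44% of the promoters of tested genes. Since the members were chosen as known parts or targets of this response, a share above that of all promoters can follow from the choice. The stretches below are those of a cystine transporter that rose (Slc7a11), of enzymes that fell (Asns, Pycr1, Chac1), of a transcription factor (Atf3) and of tRNA synthetases (Aars, Tars). Each is written 5′ to 3′ on the gene's strand, with the element in capitals.
Slc7a11 (chr3:50443627-50443705, minus strand): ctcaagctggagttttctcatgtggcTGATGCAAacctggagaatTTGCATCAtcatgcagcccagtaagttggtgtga
Asns (chr6:7693199-7693258, minus strand): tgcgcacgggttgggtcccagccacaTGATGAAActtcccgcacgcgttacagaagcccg
Pycr1 (chr11:120643818-120643877, minus strand): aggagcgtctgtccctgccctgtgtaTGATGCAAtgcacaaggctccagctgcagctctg
Chac1 (chr2:119351023-119351082, plus strand): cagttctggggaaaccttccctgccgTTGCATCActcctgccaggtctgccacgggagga
Atf3 (chr1:191183410-191183469, minus strand): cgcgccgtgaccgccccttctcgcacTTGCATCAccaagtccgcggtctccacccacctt
Aars (chr8:111033704-111033763, plus strand): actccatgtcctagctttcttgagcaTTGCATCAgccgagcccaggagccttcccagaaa
Tars (chr15:11399640-11399699, minus strand): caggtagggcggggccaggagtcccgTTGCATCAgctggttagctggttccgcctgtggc

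The element began 66 and 47 bases before the start in Slc7a11, 23 before it in Asns, 103 in Pycr1, 193 in Chac1, 110 in Atf3, 112 in Aars and 15 in Tars. A second copy in Aars lay 10 bases past the start. By role, 5 of 8 synthetase promoters, 2 of 3 of asparagine and proline synthesis, 3 of 9 of the transcription factors, 2 of 6 of the secreted and surface class and 1 of 4 of the transporters held it. None of the 6 promoters of serine and one-carbon enzymes did, nor any of the 3 of translation feedback and growth control. Psat1 and Phgdh, among the members with the largest falls, thus had no such letters in this window. Slc7a5, which also fell far, was 1 of the 6 members without a promoter entry. Slc7a11, the member that rose, had 2 copies, as had Aars, which fell. The ER stress element, CCAAT followed after 9 bases by CCACG on either strand, was in 0 of the 39 promoters and in 0.119% of all promoters. A match is a string of letters and not a measured binding site.

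**Figure D3:**
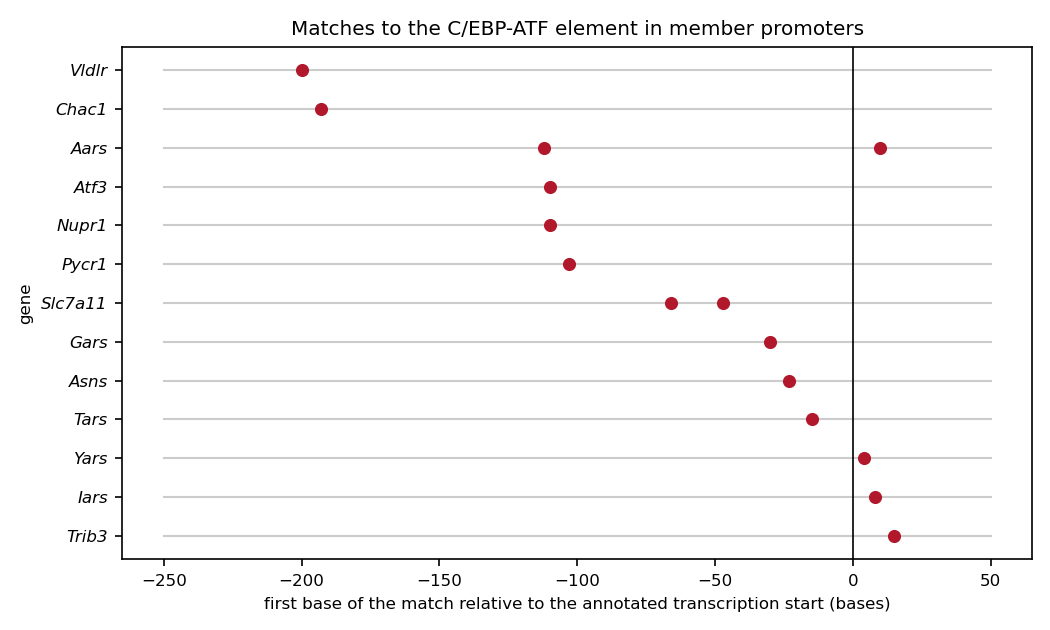
Each row is 1 of the 13 members with a match to the C/EBP-ATF response element, and each point gives the first base of a match relative to the annotated start, in bases, over the 250 bases before to 50 after it. Slc7a11 and Aars have 2 points each, and the matches run from 200 bases before the start in Vldlr to 15 past it in Trib3.

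Among the 8 transcription factors of the response, 5 fell in resolution and 6 in inflammation, and 1 differed between the 2. Atf4 (chr15:80255184-80257541 on GRCm38) encodes the central activator. It stood at 121, 146, 125 and 119.6 CPM in resolution, 147, 133, 131 and 131 CPM in inflammation and 207, 198, 192 and 204 CPM in homeostasis. Every library of both doxycycline groups lay below every homeostasis library, and Atf4 fell (-0.65 ± 0.11 SE, adjusted p = 8.86e-05, in resolution and -0.56 ± 0.11 SE, adjusted p = 0.000698, in inflammation). Ddit3 (chr10:127290774-127296288), which encodes the stress factor CHOP, stood at 26.1, 32.3, 22.3 and 25.2 CPM in resolution, 22.1, 21.05, 19.98 and 20.5 CPM in inflammation and 23.7, 35.3, 23.9 and 23.4 CPM in homeostasis. The resolution and homeostasis libraries overlapped, with homeostasis 2 and resolution 2 highest, and every inflammation library lay below both groups. Ddit3 did not pass in resolution (-0.0080 ± 0.16 SE, adjusted p = 0.971), in inflammation (-0.35 ± 0.16 SE, adjusted p = 0.0937) or between them (0.34 ± 0.16 SE, adjusted p = 0.149). In inflammation it did pass as lower with offsets for GC content and length (-0.61, adjusted p = 0.00539) and against homeostasis 1 and 2 alone (-0.50, 0.0394). Ddit3 shares 68 exonic bases with Mars on the opposite strand. Mars has 40478 counts over all libraries beside 6654 for Ddit3, and the strand setting of the counting is not given.

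Trib3 (chr2:152337422-152344032) encodes a pseudokinase that ATF4 and CHOP induce and that restrains ATF4. It stood at 4.999, 5.46, 3.59 and 4.95 CPM in resolution, 7.49, 6.43, 5.39 and 5.35 CPM in inflammation and 12.9, 8.77, 12.3 and 14.5 CPM in homeostasis. No doxycycline library reached the lowest homeostasis library, and Trib3 fell (-1.35 ± 0.20 SE, adjusted p = 1.16e-05, in resolution and -0.97 ± 0.19 SE, adjusted p = 0.000575, in inflammation). Atf5, a factor that like Atf4 is translated preferentially when eIF2 is phosphorylated, stood at 170.2, 209, 171 and 155 CPM in resolution, 188, 168, 159.9 and 139 CPM in inflammation and 251, 245, 245 and 269 CPM in homeostasis. All 8 doxycycline libraries lay below homeostasis, and Atf5 fell (-0.52 ± 0.13 SE, adjusted p = 0.00208, in resolution and -0.62 ± 0.13 SE, adjusted p = 0.000797, in inflammation). Atf3, a stress-induced repressor and activator, averaged 2.91 ± 0.561 CPM in resolution, 3.10 ± 0.548 CPM in inflammation and 5.21 ± 1.51 CPM in homeostasis and fell in both doxycycline groups (-0.84 in resolution and -0.75 in inflammation on the log2 scale), although homeostasis 1, at 3.00 CPM, lay among the doxycycline libraries.

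Nupr1, a small chromatin-bound stress protein, averaged 24.3 ± 2.92 CPM in resolution, 21.5 ± 1.93 CPM in inflammation and 34.1 ± 10.9 CPM in homeostasis. It fell in both (-0.49 ± 0.19 SE, adjusted p = 0.033, in resolution and -0.67 ± 0.19 SE, adjusted p = 0.0087, in inflammation), but homeostasis 3 and 4 (25.8 and 23.8 CPM) lay within the range of the resolution libraries, and with these as the sole controls neither call held (adjusted p = 0.934 in resolution and 0.414 in inflammation). Its inflammation call was also lost without homeostasis 2 (0.0504), and its resolution call without homeostasis 1 or 2 or resolution 1, 2 or 4 (0.0507 to 0.157). The resolution call did not hold with the 2 groups alone (0.0667) or with the replicate block over all libraries (0.0719) either. Cebpg, a partner of ATF4, averaged 9.22 ± 1.44 CPM in resolution, 7.71 ± 0.240 CPM in inflammation and 11.02 ± 3.04 CPM in homeostasis and fell in inflammation (-0.52 ± 0.18 SE, adjusted p = 0.0319), while resolution did not pass. That call was lost without homeostasis 2 or without any 1 of the inflammation libraries (adjusted p = 0.0573 to 0.196). It was also lost with upper-quartile factors (0.0596), with the 2 groups alone (0.0517) and with the replicate block over all libraries (0.0538). Against homeostasis 3 and 4 alone it did not pass either (0.3). Cebpb, an inflammation-linked partner of ATF4, averaged 73.1 ± 4.33 CPM in resolution, 102 ± 17.3 CPM in inflammation and 85.02 ± 18.2 CPM in homeostasis and was lower in resolution than in inflammation (-0.47 ± 0.15 SE, adjusted p = 0.0408). It did not pass without 1 of inflammation 1 to 3 or resolution 1, 3 or 4 (adjusted p = 0.0738 to 0.147) or with the replicate block over all libraries (0.0771). In inflammation it passed as higher without homeostasis 4 (0.41, adjusted p = 0.0337). Its exons share 312 bases with Tmem189 on the other strand.

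Of the 4 genes that adjust translation and growth, 2 fell in resolution and 1 in inflammation, with medians of -0.42 and -0.31. Eif4ebp1 encodes a repressor of cap-dependent translation that mTORC1 inactivates. It stood at 58.9, 56.9, 42.7 and 48.6 CPM in resolution, 64.97, 62.8, 51.9 and 51.9 CPM in inflammation and 77.7, 89.2, 93.5 and 96.4 CPM in homeostasis. Both doxycycline groups lay below homeostasis without overlap, and it fell (-0.79 ± 0.14 SE, adjusted p = 9.43e-05, in resolution and -0.62 ± 0.14 SE, adjusted p = 0.00149, in inflammation). Ddit4 encodes REDD1, an inhibitor of mTORC1, and stood at 38.2, 42.6, 31.1 and 34.99 CPM in resolution, 46.3, 42.9, 46.4 and 45.9 CPM in inflammation and 59.3, 38.5, 69.1 and 76.6 CPM in homeostasis. Homeostasis 2 lay far below the other 3 homeostasis libraries and within the resolution range. Ddit4 fell in resolution (-0.73 ± 0.17 SE, adjusted p = 0.00147), which did not hold against homeostasis 1 and 2 alone (adjusted p = 0.0528). In inflammation it did not pass, but it did so without homeostasis 2 (-0.57, adjusted p = 0.00346). In the blocked fit it was lower in resolution than in inflammation (-0.32, adjusted p = 0.0389).

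Ppp1r15a encodes GADD34, which directs a phosphatase to eIF2 and so ends the response. It stood at 67.4, 83.05, 59.7 and 64.01 CPM in resolution, 63.8, 62.1, 65.96 and 65.2 CPM in inflammation and 58.7, 78.5, 75.7 and 83.6 CPM in homeostasis, with overlapping groups and no call. Sesn2, a leucine-sensing inhibitor of mTORC1, averaged 50.3 ± 9.03 CPM in resolution, 42.8 ± 3.92 CPM in inflammation and 46.4 ± 8.94 CPM in homeostasis and did not pass either. In resolution libraries it lay at 41.3 to 62.1 CPM, against 35.4 to 56.01 CPM in homeostasis.

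All 5 genes of serine and one-carbon synthesis fell in both doxycycline groups, with medians of -1.93 in resolution and -1.36 in inflammation on the log2 scale, and 4 were lower in resolution than in inflammation. Phgdh (chr3:98313170-98339990) encodes the first enzyme of serine synthesis from a glycolytic intermediate. It stood at 43.3, 41.6, 31.1 and 34.7 CPM in resolution, 68.7, 64.6, 64.8 and 53.7 CPM in inflammation and 155, 132, 164 and 195 CPM in homeostasis. The 3 groups did not overlap, resolution was lowest, and the level there was 4.29-fold below homeostasis (-2.10 ± 0.15 SE, adjusted p = 1.09e-09, in resolution and -1.36 ± 0.15 SE, adjusted p = 6.92e-07, in inflammation). Resolution was also lower than inflammation (-0.74 ± 0.15 SE, adjusted p = 0.00163).

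Psat1 (chr19:15904678-15947337), whose product transaminates the next intermediate, stood at 44.6, 37.97, 40.04 and 40.9 CPM in resolution, 56.7, 56.1, 55.6 and 65.1 CPM in inflammation and 228, 212, 181 and 192 CPM in homeostasis. These 3 groups were separate as well. Psat1 was 4.97-fold lower in resolution and 3.48-fold lower in inflammation than in homeostasis (-2.31 ± 0.13 SE, adjusted p = 2.46e-11, in resolution and -1.80 ± 0.12 SE, adjusted p = 2.21e-09, in inflammation), and lower in resolution than in inflammation (-0.51 ± 0.12 SE, adjusted p = 0.00677). Psph, whose product releases serine in the last step, averaged 15.4 ± 1.44 CPM in resolution, 18.2 ± 2.68 CPM in inflammation and 29.9 ± 5.31 CPM in homeostasis and fell (-0.96 ± 0.16 SE, adjusted p = 4.33e-05, in resolution and -0.72 ± 0.16 SE, adjusted p = 0.00125, in inflammation). Its exons share 452 bases with Cct6a on the other strand, a gene with 115210 counts over all libraries beside 5770 for Psph, and reads of the 2 cannot be told apart if counting ignored strand.

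Shmt2 (chr10:127517123-127522444) encodes the mitochondrial enzyme that passes a carbon unit from serine to folate. It stood at 75.2, 91.9, 62.2 and 69.4 CPM in resolution, 127, 117, 105 and 93.1 CPM in inflammation and 264, 259, 278 and 336 CPM in homeostasis. Again no library of one group reached the next, and Shmt2 fell (-1.93 ± 0.15 SE, adjusted p = 2.71e-09, in resolution and -1.36 ± 0.14 SE, adjusted p = 5.61e-07, in inflammation) and was lower in resolution than in inflammation (-0.56 ± 0.14 SE, adjusted p = 0.0114). Mthfd2, which carries the folate-bound unit further in mitochondria, averaged 24.6 ± 3.45 CPM in resolution, 35.7 ± 1.90 CPM in inflammation and 90.6 ± 16.8 CPM in homeostasis. It fell (-1.88 ± 0.15 SE, adjusted p = 5.73e-09, in resolution and -1.35 ± 0.15 SE, adjusted p = 9.33e-07, in inflammation) and was lower in resolution than in inflammation (-0.54 ± 0.15 SE, adjusted p = 0.0185), a call that did not hold without inflammation 2 or resolution 3 (adjusted p = 0.059 and 0.0719).

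Asparagine and proline synthesis followed the same direction in all 3 genes. Asns (chr6:7675169-7693254), which encodes asparagine synthetase, stood at 91.9, 86.2, 84.4 and 82.3 CPM in resolution, 91.2, 82.7, 73.7 and 95.2 CPM in inflammation and 177, 229, 140.5 and 150.4 CPM in homeostasis. Every doxycycline library lay below homeostasis, homeostasis 2 was highest, and resolution and inflammation overlapped. Asns fell by about the same amount in both (-1.02 ± 0.15 SE, adjusted p = 1.04e-05, in resolution and -1.02 ± 0.15 SE, adjusted p = 2.08e-05, in inflammation), and the difference between resolution and inflammation was 0.01 ± 0.14 SE on the log2 scale.

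Aldh18a1 (chr19:40550257-40588463) encodes the enzyme that turns glutamate towards proline. It stood at 76.5, 95.4, 65.7 and 69.6 CPM in resolution, 121, 126, 105 and 108 CPM in inflammation and 223, 233, 205 and 233 CPM in homeostasis. The 3 groups were separate, with resolution lowest. Aldh18a1 fell (-1.54 ± 0.13 SE, adjusted p = 1.59e-08, in resolution and -0.96 ± 0.13 SE, adjusted p = 1.26e-05, in inflammation) and was lower in resolution than in inflammation (-0.58 ± 0.13 SE, adjusted p = 0.0049). Pycr1 (chr11:120635712-120643769), for the mitochondrial enzyme of the last step to proline, stood at 10.7, 9.72, 8.53 and 9.43 CPM in resolution, 19.5, 16.5, 15.3 and 14.7 CPM in inflammation and 23.3, 22.6, 24.3 and 27.6 CPM in homeostasis. It too was separate in the 3 groups. It fell (-1.35 ± 0.15 SE, adjusted p = 4.2e-07, in resolution and -0.57 ± 0.14 SE, adjusted p = 0.00445, in inflammation) and was lower in resolution than in inflammation (-0.78 ± 0.15 SE, adjusted p = 0.00113).

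**Figure D4:**
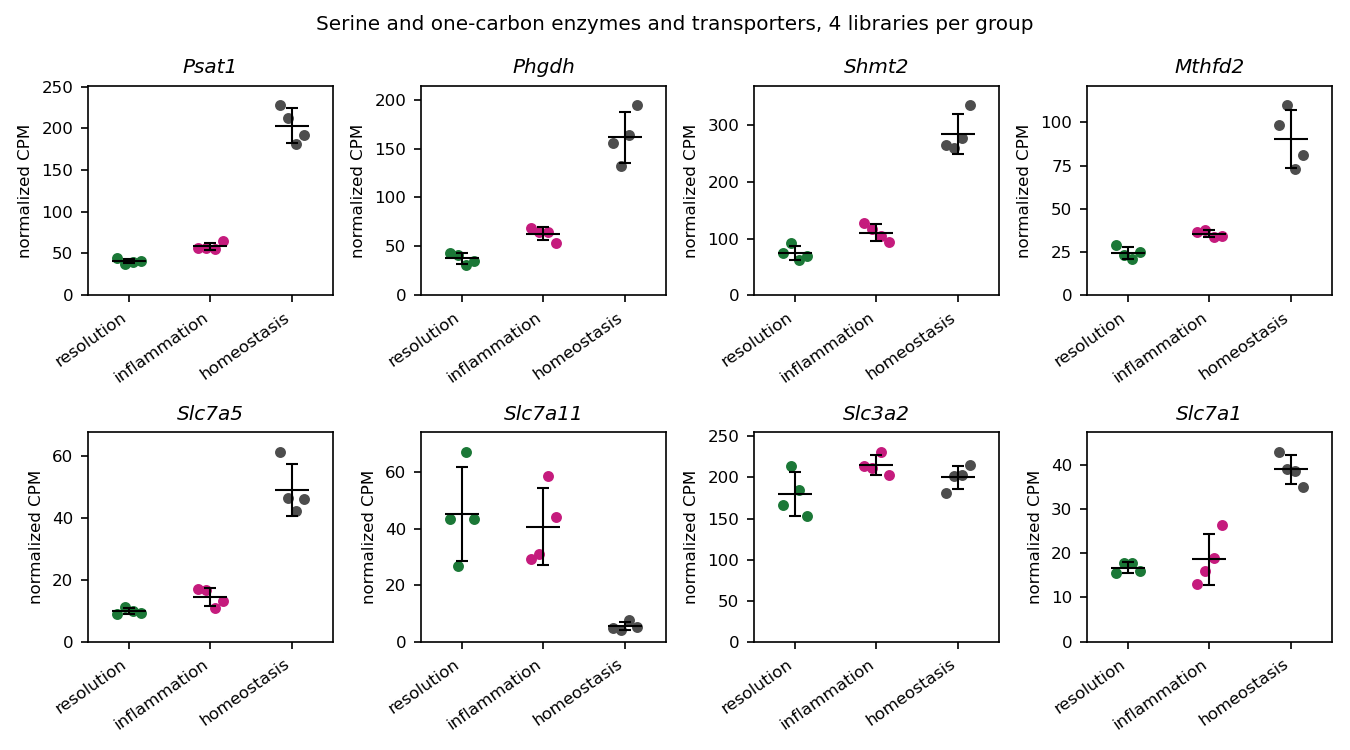
Each panel is 1 serine or one-carbon enzyme or transporter, with the level in CPM on the vertical axis from 0. Points are libraries, with resolution left, inflammation in the middle and homeostasis right, and bars give the mean ± SD of 4 libraries. Psat1, Phgdh, Shmt2 and Mthfd2 are lowest in resolution and highest in homeostasis without overlap, and Slc7a11 is the panel in which homeostasis lies below both other groups.

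The amino acid transporters did not move together. Slc7a5 (chr8:121881150-121907694) encodes LAT1, which imports leucine and other large neutral amino acids. It stood at 8.97, 11.1, 9.85 and 9.29 CPM in resolution, 17.1, 16.7, 10.97 and 13.1 CPM in inflammation and 61.4, 46.3, 42.3 and 45.99 CPM in homeostasis. It was 4.99-fold lower in resolution than in homeostasis, without overlap of either doxycycline group with homeostasis (-2.32 ± 0.17 SE, adjusted p = 1.95e-09, in resolution and -1.76 ± 0.17 SE, adjusted p = 1.43e-07, in inflammation). Between resolution and inflammation the libraries overlapped at 11.1 and 11.0 CPM. That difference passed (-0.56 ± 0.17 SE, adjusted p = 0.0302) but did not without 1 of inflammation 1 or 2 or resolution 1, 3 or 4 (adjusted p = 0.0738 to 0.107), and with offsets for GC content and length (0.217).

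Slc7a11 (chr3:49892526-50443614) encodes xCT, which exchanges glutamate for cystine and so feeds glutathione synthesis. It stood at 43.4, 26.7, 67.2 and 43.4 CPM in resolution, 29.2, 30.9, 58.5 and 44.2 CPM in inflammation and 4.72, 4.22, 7.64 and 5.30 CPM in homeostasis. The lowest doxycycline library was above 3 times the highest homeostasis library. Slc7a11 was 8.33-fold higher in resolution and 7.5-fold higher in inflammation (3.06 ± 0.28 SE, adjusted p = 3.19e-08, in resolution and 2.91 ± 0.28 SE, adjusted p = 1.29e-07, in inflammation), and the resolution and inflammation libraries overlapped. With offsets for GC content and length its log2 fold change was 2.10 in resolution and 2.38 in inflammation.

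Slc3a2 encodes CD98, the heavy chain that both LAT1 and xCT need at the cell surface. It averaged 179.6 ± 26.5 CPM in resolution, 215 ± 11.8 CPM in inflammation and 200.3 ± 13.8 CPM in homeostasis, with overlapping groups and no call. It was lower in resolution than in inflammation in the blocked fit (-0.28, adjusted p = 0.0396) and without resolution 2 (-0.36, adjusted p = 0.0304). Slc7a1 (chr5:148327410-148399904), for the cationic amino acid transporter CAT-1 that imports arginine and lysine, stood at 15.4, 17.8, 17.7 and 15.99 CPM in resolution, 13.02, 16.01, 18.9 and 26.4 CPM in inflammation and 42.9, 39.1, 38.6 and 35.03 CPM in homeostasis. Both doxycycline groups lay below homeostasis, inflammation was the more spread, and Slc7a1 fell (-1.22 ± 0.18 SE, adjusted p = 1.19e-05, in resolution and -1.07 ± 0.18 SE, adjusted p = 0.000105, in inflammation).

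The secreted, surface and glutathione-related targets gave different patterns. Stc2 (chr11:31357307-31370074) encodes a secreted glycoprotein that ATF4 induces. It stood at 9.74, 10.98, 10.7 and 10.3 CPM in resolution, 6.81, 6.88, 7.59 and 4.68 CPM in inflammation and 15.3, 15.2, 21.1 and 20.8 CPM in homeostasis. All 3 groups were separate, with inflammation lowest and resolution between it and homeostasis. Stc2 fell (-0.80 ± 0.17 SE, adjusted p = 0.000692, in resolution and -1.48 ± 0.18 SE, adjusted p = 2.46e-06, in inflammation) and was higher in resolution than in inflammation (0.68 ± 0.18 SE, adjusted p = 0.0127).

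Vldlr (chr19:27216484-27254231), for the very low density lipoprotein receptor, stood at 54.3, 41.1, 65.3 and 64.6 CPM in resolution, 29.6, 25.8, 30.6 and 40.8 CPM in inflammation and 54.5, 51.1, 46.7 and 38.2 CPM in homeostasis. Inflammation was lowest, and its library 4 lay above homeostasis 4. Vldlr fell in inflammation (-0.59 ± 0.17 SE, adjusted p = 0.0116) and was higher in resolution than in inflammation (0.83 ± 0.17 SE, adjusted p = 0.0027). Resolution against homeostasis did not pass (0.24 ± 0.17 SE, adjusted p = 0.246), and turned to -0.41 (adjusted p = 0.00292) with offsets for GC content and length. The fall in inflammation did not pass without inflammation 2 (-0.48, adjusted p = 0.0615) or with homeostasis 3 and 4 as the sole controls (-0.40, 0.131).

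Chac1, whose product degrades glutathione, stood at 4.02, 4.81, 2.72 and 3.42 CPM in resolution, 3.98, 4.50, 3.23 and 2.83 CPM in inflammation and 5.43, 6.13, 6.10 and 5.89 CPM in homeostasis. Each doxycycline library lay below each homeostasis library, and Chac1 fell (-0.65 ± 0.21 SE, adjusted p = 0.0118, in resolution and -0.69 ± 0.21 SE, adjusted p = 0.0125, in inflammation). In resolution this was lost without resolution 3 (-0.52, adjusted p = 0.0532). Gdf15, a secreted stress hormone, averaged 65.4 ± 11.2 CPM in resolution, 44.6 ± 8.13 CPM in inflammation and 50.5 ± 23.1 CPM in homeostasis and passed in no comparison. Its homeostasis libraries lay in 2 pairs, at 33.0 and 29.8 CPM in homeostasis 1 and 2 and 61.1 and 78.0 CPM in homeostasis 3 and 4. Without homeostasis 4 it was higher in resolution (0.67, adjusted p = 0.0137). With the first pair as the sole controls Gdf15 was higher in both resolution (1.05, adjusted p = 0.000141) and inflammation (0.51, adjusted p = 0.0393), and with the second pair it was lower in inflammation (-0.62, adjusted p = 0.0138). In the blocked fit of resolution against inflammation it was higher (0.54, adjusted p = 0.000741). Gdf15 also passed as higher there with no expression filter (0.55, adjusted p = 0.00936) and in the unblocked fit of the 2 groups alone (0.54, adjusted p = 0.0204). Every resolution library lay above every inflammation library for it, as for 8.94% of all genes.

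The cytosolic tRNA synthetases, which attach each amino acid to its transfer RNA, lay close together: 10 of 12 fell in resolution and 11 in inflammation, with medians of -0.60 and -0.61. Their log2 fold changes ran from -0.85 to -0.05 in resolution and from -0.69 to -0.41 in inflammation. None of the 12 reached a 2-fold difference in either comparison, and 0 passed between resolution and inflammation in edgeR (0 also at an unadjusted p under 0.05, and 0 in DESeq2). In the blocked fit of these 2 groups Yars was lower in resolution (-0.27, adjusted p = 0.0491), and Lars (0.35, adjusted p = 0.0177) and Eprs (0.32, adjusted p = 0.0391) were higher. Without resolution 2, Yars again passed as lower (-0.35, adjusted p = 0.0475) and Eprs as higher (0.54, adjusted p = 0.0204), and with the GC content and length offsets Cars passed as higher (0.31, adjusted p = 0.0445). Mars, for methionine, stood at 133, 129, 98.96 and 102 CPM in resolution, 135, 144, 129 and 115 CPM in inflammation and 206, 187, 208 and 238 CPM in homeostasis. The doxycycline libraries all lay below homeostasis, and Mars fell (-0.85 ± 0.13 SE, adjusted p = 2.69e-05, in resolution and -0.68 ± 0.13 SE, adjusted p = 0.000538, in inflammation). It shares 68 exonic bases with Ddit3 on the opposite strand.

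Aars, for alanine, stood at 356, 429, 311 and 316 CPM in resolution, 394, 400.2, 379 and 383 CPM in inflammation and 584, 713, 572 and 604 CPM in homeostasis. It was separate from homeostasis in both groups and fell (-0.81 ± 0.13 SE, adjusted p = 2.93e-05, in resolution and -0.67 ± 0.13 SE, adjusted p = 0.000411, in inflammation). It shares 1326 exonic bases on the same strand with Exosc6, which has 1970 counts over all libraries beside 122613 for Aars. Yars, for tyrosine, stood at 120.4, 140.5, 98.3 and 116 CPM in resolution, 158, 149, 139 and 121 CPM in inflammation and 203, 191, 196 and 218 CPM in homeostasis. Again neither doxycycline group reached homeostasis, and Yars fell (-0.77 ± 0.13 SE, adjusted p = 6.31e-05, in resolution and -0.51 ± 0.13 SE, adjusted p = 0.00425, in inflammation).

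The other synthetases that passed in both comparisons were those for glycine (Gars), isoleucine (Iars), cysteine (Cars), tryptophan (Wars), serine (Sars), threonine (Tars) and asparagine (Nars). Gars averaged 387 ± 27.7 CPM in resolution, 390.1 ± 22.98 CPM in inflammation and 627 ± 74.9 CPM in homeostasis and fell (-0.70 ± 0.12 SE, adjusted p = 7.39e-05, in resolution and -0.69 ± 0.12 SE, adjusted p = 0.000187, in inflammation). Iars averaged 157 ± 13.2 CPM in resolution, 162 ± 23.3 CPM in inflammation and 258 ± 46.8 CPM in homeostasis and fell (-0.72 ± 0.14 SE, adjusted p = 0.000303, in resolution and -0.67 ± 0.14 SE, adjusted p = 0.00109, in inflammation). Cars averaged 157 ± 17.4 CPM in resolution, 145 ± 10.3 CPM in inflammation and 221 ± 17.9 CPM in homeostasis. Wars averaged 81.6 ± 8.56 CPM in resolution, 82.3 ± 4.87 CPM in inflammation and 114 ± 8.22 CPM in homeostasis. Both fell (-0.49 and -0.49 in resolution, -0.61 and -0.47 in inflammation), and in resolution neither passed with offsets for GC content and length (adjusted p = 0.168 and 0.109).

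Sars averaged 336 ± 51.5 CPM in resolution, 368 ± 39.7 CPM in inflammation and 507 ± 70.3 CPM in homeostasis and fell (-0.59 ± 0.14 SE, adjusted p = 0.00139, in resolution and -0.46 ± 0.14 SE, adjusted p = 0.0137, in inflammation). Its inflammation call was lost without homeostasis 2 or inflammation 4 (adjusted p = 0.0591 and 0.0552) and against homeostasis 3 and 4 alone (0.051). Tars averaged 204 ± 12.1 CPM in resolution, 205 ± 24.7 CPM in inflammation and 311 ± 87.9 CPM in homeostasis and fell (-0.61 ± 0.16 SE, adjusted p = 0.0036, in resolution and -0.60 ± 0.16 SE, adjusted p = 0.0064, in inflammation). Nars averaged 487 ± 17.9 CPM in resolution, 467 ± 26.2 CPM in inflammation and 618 ± 143 CPM in homeostasis and fell (-0.34 ± 0.14 SE, adjusted p = 0.0438, in resolution and -0.41 ± 0.14 SE, adjusted p = 0.0276, in inflammation). With homeostasis 3 and 4 as the sole controls Tars (adjusted p = 0.128 in resolution and 0.211 in inflammation) and Nars (0.675 and 0.511) did not pass. Nars was also lost without homeostasis 1 or 2, inflammation 1 to 3 or any 1 resolution library (adjusted p = 0.0563 to 0.231). With all libraries of the compared groups kept, it did not pass with upper-quartile factors (0.0625 in resolution and 0.0712 in inflammation). Nor did it in the fit of the 2 groups alone (0.0884 and 0.0599). In resolution it was further lost with no expression filter (0.0526) and with the replicate block over all libraries (0.071).

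Lars, for leucine, averaged 173 ± 31.95 CPM in resolution, 135 ± 29.9 CPM in inflammation and 206 ± 52.4 CPM in homeostasis and fell in inflammation (-0.62 ± 0.19 SE, adjusted p = 0.014), while resolution passed only against homeostasis 1 and 2 alone (-0.55, adjusted p = 0.0196). The call in inflammation was lost without homeostasis 1 or 2 or inflammation 1, 2 or 3 (adjusted p = 0.0502 to 0.0651) and against homeostasis 3 and 4 alone (0.361). Homeostasis 1 and 2 stood at 250.02 and 252 CPM and homeostasis 3 and 4 at 169 and 154 CPM, and resolution 2, at 125 CPM, lay below the other resolution libraries at 185 to 195 CPM. Eprs, for glutamate and proline, averaged 305 ± 80.7 CPM in resolution, 237 ± 38.9 CPM in inflammation and 316 ± 74.1 CPM in homeostasis and did not pass. Resolution 2 stood at 185 CPM there, against 339 to 357 CPM in the other 3, and the value between resolution and inflammation without it stands above. In inflammation Eprs passed as lower without homeostasis 4 (-0.52, adjusted p = 0.0464), against homeostasis 1 and 2 alone (-0.67, 0.016), with no expression filter (-0.43, 0.0257) and with the GC content and length offsets (-0.66, 0.000387). In resolution it passed as lower with these offsets alone (-0.60, adjusted p = 0.00063).

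Around these genes, the rest of the pathway was described from lists of known members. Their counts, like those of the role classes above, stand beside 25.8% of all genes lower and 27.5% higher in resolution. In inflammation these shares were 18.3% and 19%. A list with counts near these shares does not stand out from all genes. Of 8 eIF2 kinases and their regulators, 2 rose and 2 fell in resolution, and 2 rose and 1 fell in inflammation, with medians of -0.03 and -0.07. Eif2ak2, which encodes the kinase PKR that senses double-stranded RNA and is induced by interferon, stood at 116, 71.2, 104 and 121 CPM in resolution, 58.3, 63.95, 70.9 and 54.7 CPM in inflammation and 14.1, 10.5, 18.7 and 20.6 CPM in homeostasis. The 3 groups did not overlap. It rose (2.70 ± 0.20 SE, adjusted p = 2.29e-09, in resolution and 1.96 ± 0.20 SE, adjusted p = 3.03e-07, in inflammation) and was higher in resolution than in inflammation (0.74 ± 0.19 SE, adjusted p = 0.0126). Impact, a regulator that restrains the amino acid sensing kinase GCN2, averaged 108 ± 22.1 CPM in resolution, 78.5 ± 6.05 CPM in inflammation and 37.7 ± 5.08 CPM in homeostasis and rose (1.52 ± 0.15 SE, adjusted p = 1.24e-07, in resolution and 1.06 ± 0.15 SE, adjusted p = 2.01e-05, in inflammation), with resolution above inflammation (0.46 ± 0.15 SE, adjusted p = 0.0407). Gcn1l1, for an activator of GCN2, fell in resolution (-0.67 ± 0.15 SE, adjusted p = 0.00102) and did not pass in inflammation. Eif2ak1, the haem-regulated kinase, fell in inflammation (-0.42 ± 0.14 SE, adjusted p = 0.0194) and did not pass in resolution.

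Of 16 subunits of eIF2, its exchange factor eIF2B and its phosphatase, 6 rose and 8 fell in resolution, and 3 rose and 7 fell in inflammation, with medians of -0.33 and -0.25. Ppp1cb, a catalytic subunit of protein phosphatase 1, averaged 251 ± 40.5 CPM in resolution, 171 ± 20.7 CPM in inflammation and 87.1 ± 12.6 CPM in homeostasis and rose (1.53 ± 0.15 SE, adjusted p = 8.64e-08, in resolution and 0.98 ± 0.15 SE, adjusted p = 3.76e-05, in inflammation). The catalytic subunit Ppp1cc averaged 33.8 ± 3.02 CPM in resolution, 29.3 ± 2.73 CPM in inflammation and 43.6 ± 5.13 CPM in homeostasis and fell (-0.37 ± 0.14 SE, adjusted p = 0.0281, in resolution and -0.57 ± 0.14 SE, adjusted p = 0.00264, in inflammation). The X-linked eIF2 gamma gene Eif2s3x averaged 54.7 ± 14.7 CPM in resolution, 36.2 ± 3.33 CPM in inflammation and 21.4 ± 5.87 CPM in homeostasis and rose (1.35 ± 0.20 SE, adjusted p = 1.89e-05, in resolution and 0.76 ± 0.20 SE, adjusted p = 0.00644, in inflammation). Its Y-linked copy Eif2s3y had 0 counts in both doxycycline groups, against 25.9 ± 3.85 CPM in homeostasis, at least 698-fold lower in resolution and at least 774-fold lower in inflammation, with 3 counts over the group as the limit. With Eif2s3y set at these bounds the medians of the list were the same to 2 decimals. The labels do not give the sex of the animals. For Eif2s3x as for Eif2s3y, a difference in sex cannot be told apart from that of the groups.

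Of 29 other known ATF4 targets tested (30 listed, with Fgf21 below the filter), 16 fell and 4 rose in resolution and 13 fell and 1 rose in inflammation, with medians of -0.58 and -0.35. One-carbon enzymes were again among the falls. Aldh1l2, a mitochondrial folate dehydrogenase, averaged 8.42 ± 2.37 CPM in resolution, 7.16 ± 1.46 CPM in inflammation and 39.7 ± 12.9 CPM in homeostasis and fell (-2.24 ± 0.24 SE, adjusted p = 2.78e-07, in resolution and -2.47 ± 0.24 SE, adjusted p = 1.86e-07, in inflammation). Shmt1, the cytosolic partner of Shmt2, averaged 3.75 ± 0.612 CPM in resolution, 5.86 ± 0.518 CPM in inflammation and 18.04 ± 1.52 CPM in homeostasis and fell (-2.27 ± 0.17 SE, adjusted p = 1.76e-09, in resolution and -1.62 ± 0.16 SE, adjusted p = 2.33e-07, in inflammation), with resolution below inflammation (-0.64 ± 0.17 SE, adjusted p = 0.014). Mthfd1l, for the mitochondrial synthesis of formate, fell (-1.45 ± 0.13 SE, adjusted p = 1.73e-08, in resolution and -1.28 ± 0.13 SE, adjusted p = 2e-07, in inflammation). Bcat1, which transaminates branched-chain amino acids, averaged 120.1 ± 12.5 CPM in resolution, 170.0 ± 8.59 CPM in inflammation and 327 ± 20.6 CPM in homeostasis, fell (-1.44 ± 0.12 SE, adjusted p = 8.38e-09, in resolution and -0.94 ± 0.12 SE, adjusted p = 4.36e-06, in inflammation) and was lower in resolution than in inflammation (-0.50 ± 0.12 SE, adjusted p = 0.00656). Between resolution and inflammation, Slc43a1, a transporter of large neutral amino acids, was lower in resolution (-1.18 ± 0.23 SE, adjusted p = 0.00154), and Gadd45a, a growth arrest gene, was higher (0.79 ± 0.18 SE, adjusted p = 0.00486).

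Of 11 other cytosolic synthetases and scaffold genes, 5 fell and 1 rose in each comparison against homeostasis, with medians of -0.29 in resolution and -0.36 in inflammation. Vars, for valine, averaged 82.3 ± 19.1 CPM in resolution, 141 ± 13.4 CPM in inflammation and 264 ± 55.7 CPM in homeostasis, fell (-1.68 ± 0.17 SE, adjusted p = 1.51e-07, in resolution and -0.90 ± 0.17 SE, adjusted p = 0.000315, in inflammation) and was lower in resolution than in inflammation (-0.78 ± 0.17 SE, adjusted p = 0.00358). Aimp2, a scaffold protein of the multi-synthetase complex, averaged 37.8 ± 4.58 CPM in resolution, 50.2 ± 6.70 CPM in inflammation and 89.7 ± 10.5 CPM in homeostasis, fell (-1.25 ± 0.14 SE, adjusted p = 5.86e-07, in resolution and -0.84 ± 0.14 SE, adjusted p = 0.000114, in inflammation) and was lower in resolution than in inflammation (-0.41 ± 0.14 SE, adjusted p = 0.0499). Kars, for lysine, fell (-0.69 ± 0.12 SE, adjusted p = 7.92e-05, in resolution and -0.64 ± 0.12 SE, adjusted p = 0.000334, in inflammation). Dars, for aspartate, was the exception, at 92.5 ± 9.72 CPM in resolution, 74.5 ± 4.38 CPM in inflammation and 54.02 ± 3.37 CPM in homeostasis, and rose (0.78 ± 0.12 SE, adjusted p = 2.7e-05, in resolution and 0.46 ± 0.12 SE, adjusted p = 0.00529, in inflammation).

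Of 17 mitochondrial synthetases, 9 fell and 1 rose in resolution and 6 fell and 0 rose in inflammation in edgeR (0 also at an unadjusted p under 0.05 and in DESeq2). The medians were -0.38 in resolution and -0.32 in inflammation. Aars2, for alanine, fell (-0.92 ± 0.16 SE, adjusted p = 7.69e-05, in resolution and -0.41 ± 0.16 SE, adjusted p = 0.0456, in inflammation) and was lower in resolution than in inflammation (-0.51 ± 0.16 SE, adjusted p = 0.0346). Sars2 and Tars2 fell in resolution (-0.76 ± 0.18 SE, adjusted p = 0.00136 and -0.63 ± 0.16 SE, adjusted p = 0.00234) and did not pass in inflammation. Yars2 fell (-0.49 ± 0.13 SE, adjusted p = 0.0034, in resolution and -0.35 ± 0.13 SE, adjusted p = 0.0367, in inflammation). Nars2 fell in inflammation (-0.44 ± 0.16 SE, adjusted p = 0.0355) and did not pass in resolution.

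Of 12 glutamine, aspartate and nitrogen enzymes, 8 fell and 2 rose in resolution and 4 fell and 2 rose in inflammation, with medians of -0.41 and -0.30. Ass1, for argininosuccinate synthetase, was higher in resolution than in inflammation (0.77 ± 0.20 SE, adjusted p = 0.0116), and its homeostasis libraries lay in 2 pairs, at 148 and 135 CPM in homeostasis 1 and 2 and 268 and 296 CPM in homeostasis 3 and 4. Prodh, for the first step of proline breakdown, averaged 0.563 ± 0.162 CPM in resolution, 0.345 ± 0.272 CPM in inflammation and 1.33 ± 0.647 CPM in homeostasis and fell (-1.21 ± 0.46 SE, adjusted p = 0.0332, in resolution and -1.88 ± 0.48 SE, adjusted p = 0.00473, in inflammation). Glud1, for glutamate dehydrogenase, fell (-0.40 ± 0.12 SE, adjusted p = 0.00838, in resolution and -0.41 ± 0.12 SE, adjusted p = 0.0114, in inflammation). Oat, which links ornithine and glutamate semialdehyde, fell (-0.67 ± 0.11 SE, adjusted p = 6.37e-05, in resolution and -0.34 ± 0.11 SE, adjusted p = 0.0238, in inflammation).

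**Figure D5:**
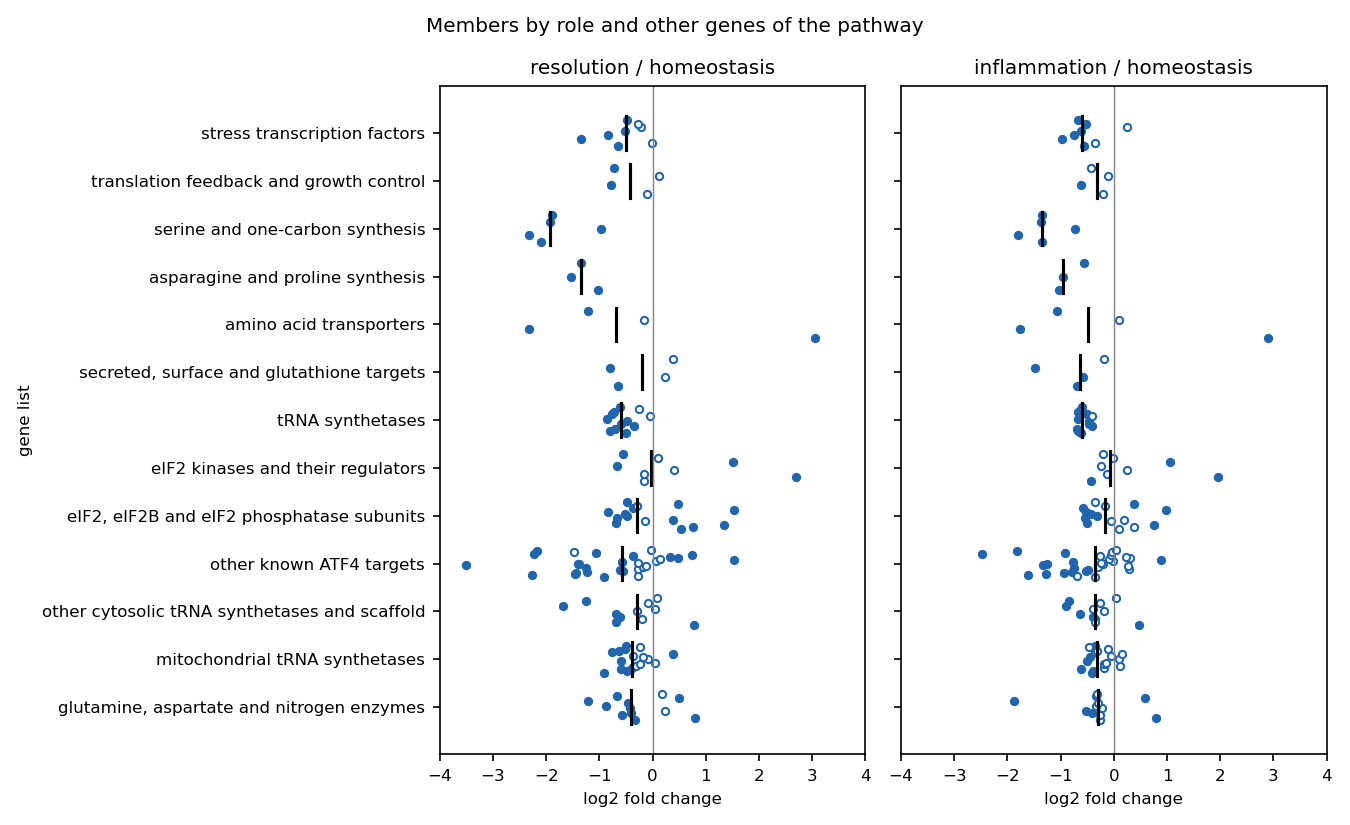
Each point is 1 gene, with its role class or pathway list on the vertical axis and its fitted log2 fold change against homeostasis on the horizontal axis, for resolution in the left panel and inflammation in the right. Filled points passed, open points did not, and short vertical bars are medians. Eif2s3y, with 0 counts in both doxycycline groups, is left out of the points and of the median of its list. Slc7a11 lies at 3.06 and 2.91 among the transporters and Eif2ak2 at 2.70 and 1.96 among the kinases.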

How the data were processed

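Per the labels' protocols, poly(A) RNA was sequenced in pairs of 150 bases to 6 G of raw data a sample. The authors deposited 1 table of estimated counts (expected counts) per gene symbol, not normalized, for 12 libraries in 3 groups of 4. Per the submitters' processing notes the genome build was GRCm38.p3. Aligner, counting tool, annotation and strand setting: not given in the sources used here. Groups and replicate numbers came from the sample titles. No label states separate animals or cultures within a group, so the p-values reflect a spread between samples that may be technical.

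Values that were not whole (tolerance 0) made up 1.43% of the deposited table, with none in the 40 members. From 36930 entries, 13 without a value were left out (1 of them a second Slc7a5 entry) and 42 repeated entries over 34 symbols were summed, leaving 36875 symbols, which were rounded. With edgeR 4.0.16 in R 4.3.3, genes were kept by its expression filter (15049), scaled by TMM, and tested with the robust quasi-likelihood F test on all 12 libraries with a group term alone and Benjamini-Hochberg adjustment at 0.05. The SE of a log2 fold change was taken from the F statistic. The biological coefficient of variation was 18.6%. A count of 0 allows up to 3 counts per library, 0.0858 to 0.166 CPM, for counting error only. The members, the 6 pathway lists (94 symbols, all matched, some through RefSeq synonyms) and the marker lists were chosen with earlier results of these data known. Every member is named; values in every library are given for Atf4, Ddit3, the 3 members of each role with the smallest adjusted p and those that moved against their class. Of each pathway list, up to 3 genes with the smallest adjusted p per comparison are named, most by log2 fold change or group mean alone. Some genes that this rule takes are not reported here. Gene positions and exon overlaps came from GENCODE M21.

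Alternatives were DESeq2 1.42.0, RLE and upper-quartile factors, no expression filter, the 2 groups alone, a replicate block, offsets for GC content and transcript length (90.6% of tested genes), homeostasis 1 and 2 or 3 and 4 as the sole controls, and leaving out each library. Deviations from the group means of same-numbered resolution and inflammation libraries correlated at 0.126 to 0.214 in all 4 pairs. Differently numbered libraries of these groups correlated at -0.251 to 0.2, a range that overlaps it, and 6 libraries correlated best with their own number. The numbers were taken as pairing the libraries on this weak ground, and the calls of the blocked fit rest on it. The check used the data alone, since no label says what a number marks.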

Additional observations from a re-analysis of the deposited data

Results flagged for a closer look

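Among 120 groups of 4 libraries (40 members in 3 groups), 8 held a library set apart from the other 3 by more than Dixon's 95% criterion, where chance gives about 1 group in 20. Resolution 2 was low in 2 tRNA synthetases: Eprs stood at 185 CPM there, against 339 to 357 CPM in the other resolution libraries, and Lars at 125 CPM, against 185 to 195 CPM. Inflammation 4 was high in Iars (197 CPM, against 148 to 154 CPM in the other inflammation libraries), in Lars (179 CPM, against 118 to 123 CPM) and in Psat1 (65.1 CPM, against 55.6 to 56.7 CPM). Atf4 stood at 147 CPM in inflammation 1, against 131 to 133 CPM in the other inflammation libraries. Ddit4 stood at 42.9 CPM in inflammation 2, against 45.9 to 46.4 CPM in the others, a small gap within a narrow group. Ddit3 stood at 35.3 CPM in homeostasis 2, against 23.4 to 23.9 CPM in the other homeostasis libraries.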

How the results depend on the processing

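Over all the alternative settings run, 26 to 29 members fell in resolution against homeostasis and 26 to 34 in inflammation against homeostasis, and 1 to 3 and 1 to 2 rose; controls reduced to homeostasis 3 and 4 gave the lowest counts. The serine, one-carbon, asparagine and proline genes, Slc7a5, Slc7a1, Slc7a11, Atf4, Atf5, Trib3, Eif4ebp1, Stc2, Aars, Gars, Mars, Yars and Iars passed in both of these comparisons under every setting run. Between resolution and inflammation, the fit of the 2 groups alone with the replicate block, added after seeing the data, called 16 members and 4808 genes in place of 10 and 2431. The block over all 12 libraries called 9 members and 1898 genes there. The numbers do not pair either group with homeostasis, where same-numbered libraries correlated at -0.228 to 0.08. With the block over all 12 libraries 27 members fell in resolution and 30 in inflammation, beside 3652 and 2414 of all genes. Leaving out 1 library gave 1242 to 4191 genes between resolution and inflammation, the highest without resolution 2. Calls lost without 1 library stand beside each gene, except Atf3 in inflammation, lost without homeostasis 4 or inflammation 1 (adjusted p = 0.0572 and 0.0719) and, like its call in resolution, against homeostasis 1 and 2 alone (0.193, and 0.0945 in resolution). Directions turned for genes that had not passed. Against homeostasis 3 and 4 alone these included Gdf15 (-0.079), Sesn2 (-0.0758), Eprs (0.28), Lars (0.11) and Ddit3 (0.174) in resolution, and against homeostasis 1 and 2 alone Gdf15 (0.51) and Sesn2 (0.118) in inflammation. Leaving out 1 library, the values ran from -0.34 to 0.13 for Gdf15 in inflammation, from -0.0046 to 0.22 for Sesn2 in resolution, from -0.16 to 0.13 for Eprs in resolution, from -0.121 to 0.171 for Ddit3 in resolution, from -0.205 to 0.0014 for Sesn2 in inflammation and from -0.0146 to 0.14 for Ppp1r15a between resolution and inflammation. With GC content and length offsets Vldlr turned in resolution against homeostasis (-0.41), and there Gdf15 (0.64) and Sesn2 (0.46) passed as higher and Cebpg (-0.81) and Eprs (-0.60) as lower. These offsets also gave calls for Ddit3 (-0.61), Ddit4 (-0.41), Eprs (-0.66) and Slc3a2 (0.23) in inflammation against homeostasis. Between resolution and inflammation they gave calls for Atf5 (0.38), Cars (0.31), Ppp1r15a (0.33), Sesn2 (0.48) and Gdf15 (0.82), all higher in resolution. With them Nupr1 (-0.28), Cars (-0.17) and Wars (-0.16) no longer passed in resolution against homeostasis, nor Cebpb (-0.29) and Slc7a5 (-0.32) between resolution and inflammation. The cause was not tested. Of 120 pairs of a member and a comparison, 26 passed under no setting, and 42 of their 422 alternative values had the other sign. The median of all genes moved by over 0.1 in resolution against homeostasis alone, to 0.18 in DESeq2 and 0.17 with no filter.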
